A study of Rattus norvegicus with 12 samples.

Results

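The transcripts described here encode microtubule-associated proteins and stathmins of neurons, followed in RNA recovered with Staufen2 from embryonic rat brain. Genes were taken by symbol from 9 names, which were Map1a, Map1b, Map2, Mapt, Dcx and the stathmins Stmn1, Stmn2, Stmn3 and Stmn4, with the older symbols Mtap1a, Mtap1b and Mtap2 counted as the same genes. Of these, 7 genes had a probe, 1 each, among the 22226 probes of the array. Map1a and Map2 stood in the file as Mtap1a and Mtap2. Mapt and Dcx were not analysed here.

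Staufen2 is a double-stranded RNA-binding protein of the ribonucleoprotein particles that carry mRNA into dendrites. RNA was recovered with a rabbit polyclonal antibody against Staufen2 (6 arrays, called replicates 0 to 5, where 0 is the sample without a number in its label) or with preimmune antibody (6 arrays, replicates 1 to 6). Both groups came from detergent lysates of whole brains of Sprague-Dawley rats at embryonic day 17 to 18, collected on protein A beads. The tissue label of all 12 samples reads P18 beside the word embryonic, where the protocols have embryonic day 17 to 18, which are used here. No array of total brain RNA was analysed here, so each transcript is set against its recovery with preimmune antibody and not against its level in the brain. A whole brain holds many cell types, and fewer cells of a type cannot be told apart from less RNA per cell. The labels tie no array to a brain or lysate of its own, so a p-value covers the scatter among arrays, whether biological or technical.

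Microtubules are polymers of tubulin that grow and shrink at their ends. MAP1A, MAP1B and MAP2 bind along the polymer and stabilise or bundle it: MAP1B is abundant in growing axons of the embryo, MAP1A rises as neurons mature, and MAP2 marks dendrites, where its mRNA is also found. Stathmins work the other way, since they bind free tubulin and promote the shrinkage of microtubule ends. Stathmin-1 is found in many dividing and neuronal cells, whereas the products of Stmn2 (SCG10), Stmn3 (SCLIP) and Stmn4 (RB3) are mainly neuronal and membrane-bound.

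Staufen2 arrays carried more signal throughout, and this sets how any single transcript can be read. Probes with a detection p-value under 0.05 made up 45.4% to 48.8% of Staufen2 arrays and 11.6% to 34.8% of preimmune arrays, and the mean raw signal was 340.1 to 516 against 69.2 to 129 units. Preimmune replicates 2 and 6 were the weakest, with 17.6% and 11.6% of probes detected. Every Staufen2 array lay above every preimmune array in raw signal for each of the 7 genes, as it did for 91.1% of the 9136 tested probes, so raw separation says little about a given transcript. Values were therefore background-corrected and quantile normalized, which gives every array the same distribution, and a log2 difference below is Staufen2 minus preimmune with the standard error (SE) of limma's fit and its Benjamini-Hochberg adjusted p over the 9136 tested probes. A difference on this scale is relative to the other transcripts of the same precipitate. Without any scaling between arrays the median tested probe was 2.57 log2 units higher with Staufen2, against 0.08 after quantile normalization.

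On the quantile scale Map1b and Map2 were called higher with Staufen2. Map1a also passed limma's threshold in that direction, but it was detected on no preimmune array and has only a bound there, so its call carries no weight. With it, 3 of 7 genes passed as higher, beside 31.3% of all tested probes. Stmn1 and Stmn3 were called lower (2 of 7, beside 14.5%), and Stmn2 and Stmn4 passed in neither direction. Stmn1, Stmn2 and Stmn3 were detected on all 12 arrays. Of the 1683 such probes, fitted alone with limma, 995 were lower and 272 higher at an unadjusted p under 0.05. Lower was thus the common direction among probes detected throughout. The lower calls of Stmn1 and Stmn3 are relative ones, because with no scaling all 7 genes were called higher, as were 9135 of the 9136 tested probes (100%). With the median of each array aligned, 6 of the 7 were called higher and 0 lower, beside 74% and 6.06% of tested probes. The median fitted difference of the 7 genes was 0.09, that of Map1a itself, beside 0.08 for all tested probes. All 7 passed the detection filter, Map1a only through the Staufen2 arrays. In normalized value no gene had every Staufen2 array above every preimmune array, as 20.9% of tested probes did.

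Map1b, the embryonic axonal microtubule-associated protein, had raw signals of 2615, 981, 3175, 3464, 3021 and 6080 units on Staufen2 replicates 0 to 5, against 133, 76.6, 192, 213, 127 and 62.1 units on preimmune replicates 1 to 6. Replicate 5 was the highest Staufen2 array and replicate 1 the lowest, and preimmune replicates 2 and 6 were not detected. The mean was 3223 ± 1653 units with Staufen2 and 134 ± 60.0 units with preimmune antibody (SD, n = 6 each). After normalization Map1b was 2.43 ± 0.65 log2 units higher (limma, adjusted p = 0.00794), with log2 means of 10.51 with Staufen2 and 8.08 with preimmune antibody. The normalized groups overlapped, since Staufen2 replicate 1, at 9.42, lay under preimmune replicates 4 and 5, at 9.52 and 9.54. The difference shrank to 1.40 ± 0.35 without preimmune replicates 2 and 6 (adjusted p = 0.00503), where Map1b had not been detected. Without these 2 arrays 30.8% of tested probes were called higher and 25.9% lower.

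Map2, the dendritic microtubule-associated protein, had raw signals of 1375, 540, 740, 741, 380 and 376 units on the Staufen2 arrays, against 99.5, 86.8, 112, 93.5, 70.0 and 67.1 units on the preimmune arrays. Staufen2 replicate 0 was the highest, and replicates 4 and 5 were the lowest of their group. Means were 692 ± 372 units with Staufen2 and 88.2 ± 17.4 units with preimmune antibody (SD, n = 6 each), with 4 of 6 preimmune arrays detected. The normalized difference was 1.35 ± 0.45 log2 units (limma, adjusted p = 0.0238), and the groups overlapped, because Staufen2 replicates 4 and 5, at 7.04 and 6.94, lay under preimmune replicate 2, at 7.78. The call was lost without Staufen2 replicate 0 (1.09, adjusted p = 0.0579) or without Staufen2 replicate 2 (1.27, adjusted p = 0.0517). It was also lost with the closest arrays of each group averaged.

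The 2 low Map2 arrays were also a group by their column codes. The codes that head the detection columns fall into 2 consecutive runs, whose meaning is not stated: the first holds Staufen2 replicates 0 to 3 and preimmune replicates 1 to 4, the second Staufen2 replicates 4 and 5 and preimmune replicates 5 and 6. Normalized Map2 was 8.35 to 9.25 on the Staufen2 arrays of the first run and 6.94 to 7.04 on those of the second. With the run as a block the Map2 difference had an adjusted p of 0.00171, and within the first run it was 1.52 (adjusted p = 0.00359). Within the second run it was 1.10 (adjusted p = 0.108), where none of the 9136 tested probes passed limma's threshold after adjustment and 3041 had an unadjusted p under 0.05. Map1b was 2.05 higher within the first run (adjusted p = 0.0327) and 3.20 within the second (adjusted p = 0.162).

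Map1a, the form that rises in mature neurons, lay near background throughout. Its raw signals were 98.3, 97.7, 100.1, 115, 113 and 145 units with Staufen2, all detected, against 78.1, 78.4, 79.1, 71.2, 66.0 and 62.4 units with preimmune antibody, none detected. The means were 111 ± 18.1 units with Staufen2 and 72.5 ± 7.15 units with preimmune antibody (SD, n = 6 each). A probe detected on no preimmune array allows only a bound there, and for Map1a the bound gave no fold above 1, whereas limma's fit passed the threshold (adjusted p = 0.0171). The normalized groups overlapped, and the call was lost within the first run of codes (adjusted p = 0.0865) and within the second (adjusted p = 0.113).

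**Figure D1:**
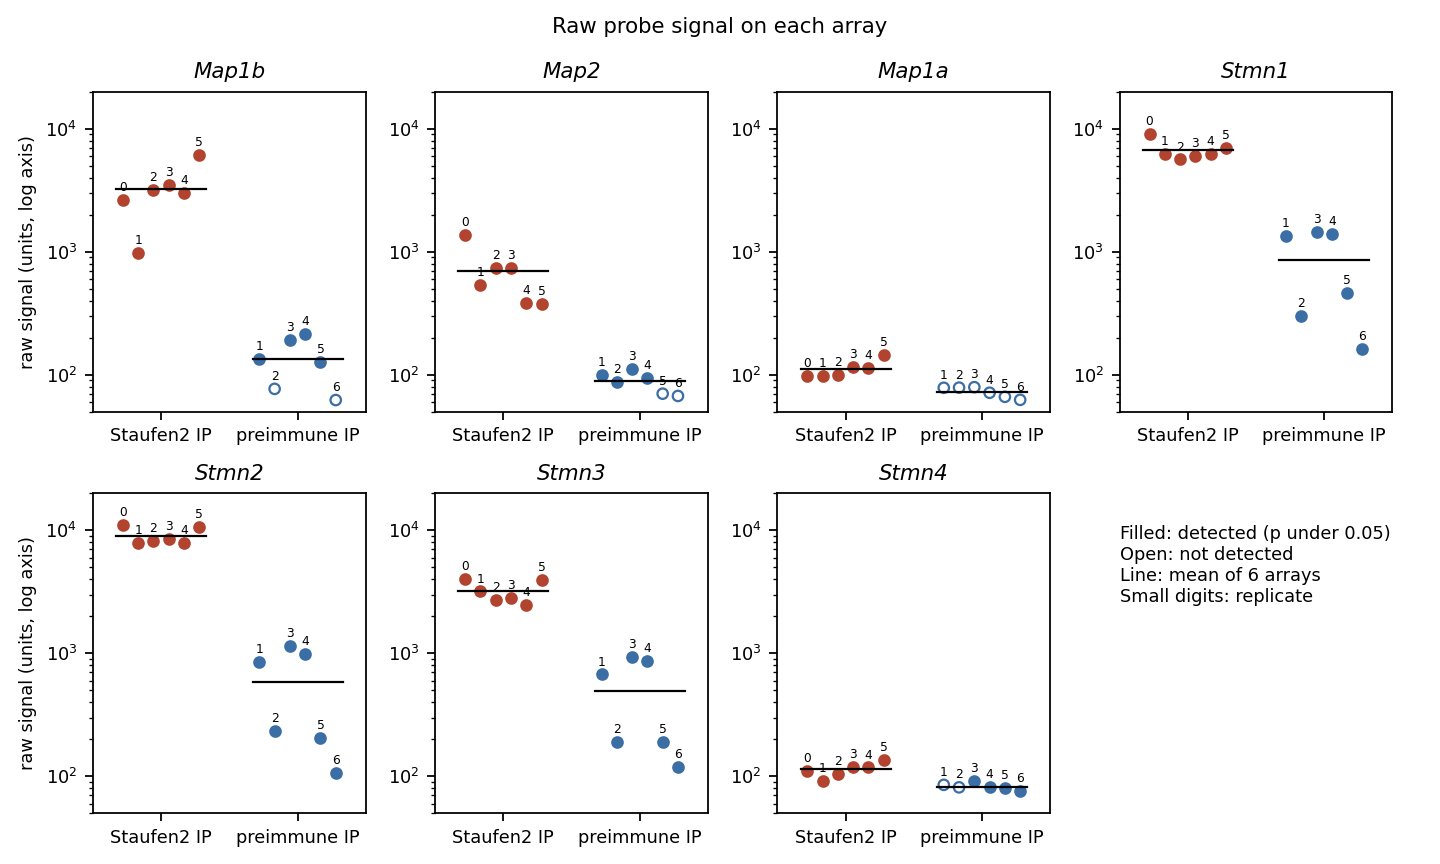
Raw signal (array units, log axis) of the probe of each gene on the 6 Staufen2 arrays (left, red) and the 6 preimmune arrays (right, blue), with the replicate number at each point and a line at the group mean. Filled points were detected and open points were not. The Staufen2 arrays lie above the preimmune arrays in every panel, as for 91.1% of tested probes, and Map1a and Stmn4 stay near the background.

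Stmn1 and Stmn3 were the called stathmins, and both were lower on the quantile scale and higher with no scaling. Stmn1, the stathmin found beyond neurons, had raw signals of 9018, 6198, 5632, 5993, 6213 and 7019 units with Staufen2, against 1354, 299, 1444, 1387, 460 and 163 units with preimmune antibody. The Staufen2 arrays differed little among themselves, and preimmune replicates 2, 5 and 6 were lower than the other three. Means were 6679 ± 1233 units with Staufen2 and 851 ± 604 units with preimmune antibody (SD, n = 6 each). After quantile normalization Stmn1 was lower with Staufen2, with a difference of -0.84 ± 0.15 log2 units (limma, adjusted p = 0.000617), at 11.54 to 12.11 with Staufen2 and 12.34 to 12.90 with preimmune antibody. These groups did not overlap, with every Staufen2 array below every preimmune array, as for 11.7% of tested probes. With only the median of each array aligned the difference was 1.65 (adjusted p = 0.0111), and with no scaling it was 3.61 (adjusted p = 1.7e-06).

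Stmn3, which encodes SCLIP, had raw signals of 4035, 3183, 2693, 2827, 2458 and 3948 units with Staufen2, against 672, 191, 927, 866, 191 and 119 units with preimmune antibody. The preimmune arrays fell into the same high and low sets as for Stmn1. Means were 3191 ± 664 units with Staufen2 and 494 ± 369 units with preimmune antibody (SD, n = 6 each). The quantile-normalized difference was -1.15 ± 0.25 log2 units (limma, adjusted p = 0.00223). Preimmune replicate 5, at 10.77, lay inside the Staufen2 range of 10.11 to 11.15, and the other preimmune arrays lay above it at 11.79 to 12.20. Median alignment gave 1.53 (adjusted p = 0.0135) and no scaling 3.48 (adjusted p = 8.9e-07). Within the second run of codes alone neither Stmn1 (-1.03, adjusted p = 0.108) nor Stmn3 (-1.05, adjusted p = 0.275) was called.

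Stmn2, which encodes SCG10 of growing axons, had raw signals of 11056, 7923, 8199, 8573, 7895 and 10576 units with Staufen2, against 845, 233, 1154, 981, 204 and 107 units with preimmune antibody. Means were 9037 ± 1407 units with Staufen2 and 587 ± 457 units with preimmune antibody (SD, n = 6 each). Relative to the rest of each precipitate it was not called, at 0.27 ± 0.22 log2 units (limma, adjusted p = 0.321), and the normalized groups overlapped. Median alignment gave 2.89 (adjusted p = 0.000327) and no scaling 4.84 (adjusted p = 1.1e-10), both past the threshold.

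Stmn4, which encodes RB3, was near background, with 111, 92.1, 105, 119, 118 and 137 units with Staufen2, against 85.1, 81.2, 90.8, 81.6, 80.01 and 75.8 units with preimmune antibody. It was detected on all 6 Staufen2 arrays and on 4 of 6 preimmune arrays. Its normalized difference was -0.58 ± 0.35 (limma, adjusted p = 0.189). That value leaned on preimmune replicate 6, which had the lowest raw signal of all 12 arrays and, at 8.66, the highest normalized value, while the other preimmune arrays stood at 6.09 to 6.52. Without replicate 6 the difference was -0.19 (adjusted p = 0.0296), and with no scaling it was 1.93 (adjusted p = 1.1e-19).

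The 5 brighter genes were also compared on values that involve no quantile step. Among 2947 probes whose mean Staufen2 signal exceeded background by at least 500 units, the log2 signal over the array's own background was taken and each array was centred on the median of this set. Map1b stayed higher by 1.52 ± 0.34 (limma, adjusted p = 0.00118), the only one of the 5 called higher, beside 29.4% of these probes. Map2 was no longer called, at 0.49 ± 0.54 (adjusted p = 0.450). Signals under 5 units over background were set to 5 before the log2. That floor replaced Map1b on preimmune replicates 2 and 6 (1.30 and -4.49 units) and Map2 on preimmune replicates 5 and 6 (0.13 and 0.47 units). The differences of these 2 genes on this scale therefore rest partly on the floor. Stmn1 and Stmn3 were lower on this scale, at -1.21 ± 0.19 (adjusted p = 5.5e-05) and -1.30 ± 0.26 (adjusted p = 0.000411), beside 29% of these probes called lower. Stmn2 was level with the typical bright probe, at 0.05 ± 0.24 (adjusted p = 0.874).

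The contrast can also be read from ratios of mean signal over background between the precipitates. The median bright probe had 20.4 times as much signal over background with Staufen2 as with preimmune antibody. That set was chosen on the Staufen2 signal alone. Map1b had 51.7 times and Map2 40.4 times as much, but these rest on preimmune means of 60.8 and 15.1 units over background, with each gene undetected on 2 preimmune arrays, so neither ratio is precise and neither was ranked. The 3 bright stathmins were detected on all 12 arrays. Stmn2 had 17.4 times, at percentile 43.7, so its recovery was close to that of the median. Stmn1 had 8.48 times and Stmn3 7.39 times, at percentiles 16.5 and 12.3.

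**Figure D2:**
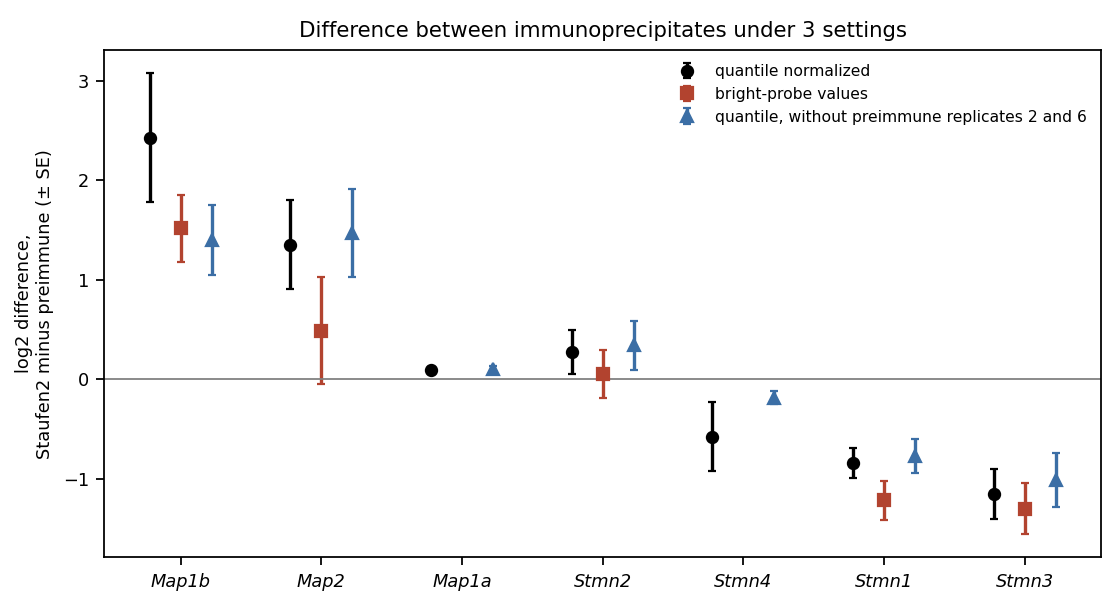
Log2 difference, Staufen2 minus preimmune, with SE, for each gene under quantile normalization (black), under the centred values of bright probes (red) and under quantile normalization without preimmune replicates 2 and 6 (blue). Map1b stays above 0 in all 3 settings and Stmn1 and Stmn3 stay below 0. With no scaling between arrays, not drawn, all 7 differences are above 0.

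Ratios between probes of 1 array do not depend on any scaling between arrays, and they show whether a pair of transcripts changed unequally. Their size has no meaning across pairs because probes differ in brightness. All 4 stathmins and Map2 had signal over background on all 12 arrays, which gave 10 pairs, each tested with a two-sided exact permutation test whose smallest possible p is 0.00216. These p-values are not adjusted for the number of pairs. The text gives the pairs of bright probes, because in pairs with Map2 or Stmn4 the preimmune signal was close to background, down to 0.13 units over it for Map2.

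Stmn2 changed unequally with Stmn1 and with Stmn3. Among bright probes on the centred scale 29.4% were higher and 29% lower, and how often other pairs of bright probes change unequally was not tested. The log2 ratio of Stmn1 over Stmn2 was -0.45 ± 0.13 with Staufen2 and 0.82 ± 0.48 with preimmune antibody (SD, n = 6 each), with ranges of -0.60 to -0.30 and 0.34 to 1.54. The groups did not overlap, and the difference was -1.27 (exact permutation p = 0.00216, 95% interval -1.73 to -0.87). The log2 ratio of Stmn2 over Stmn3 was 1.54 ± 0.14 with Staufen2 and 0.19 ± 0.30 with preimmune antibody, with ranges of 1.34 to 1.72 and -0.38 to 0.45. These groups did not overlap either, and the difference was 1.35 (exact permutation p = 0.00216, 95% interval 1.09 to 1.66). Between Stmn1 and Stmn3 no difference was detected, since their log2 ratio was 1.09 ± 0.18 with Staufen2 and 1.01 ± 0.37 with preimmune antibody. That difference was 0.09 (exact permutation p = 0.636, 95% interval -0.29 to 0.42).

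Map1b could be set against the stathmins on the 10 arrays left without preimmune replicates 2 and 6, which gave 15 pairs and a smallest possible p of 0.00476. The log2 ratio of Map1b over Stmn1 was -1.25 ± 0.90 with Staufen2 (SD, n = 6) and -3.53 ± 0.76 with preimmune antibody (SD, n = 4). Its groups nearly touched but did not overlap, with ranges of -2.76 to -0.21 with Staufen2 and -4.57 to -2.78 with preimmune antibody, and the difference was 2.28 (exact permutation p = 0.00952, 95% interval 0.94 to 3.56). Map1b over Stmn3 differed by 2.32 with overlapping groups (exact permutation p = 0.0143, 95% interval 0.80 to 3.70). Map1b over Stmn2 differed by 1.05 (exact permutation p = 0.129, 95% interval -0.37 to 2.44), so an unequal change of Map1b and Stmn2 was not shown. Within the first run of codes Map1b over Stmn1 differed by 2.23 (exact permutation p = 0.0571) and Map1b over Stmn3 by 2.47 (exact permutation p = 0.0571).

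**Figure D3:**
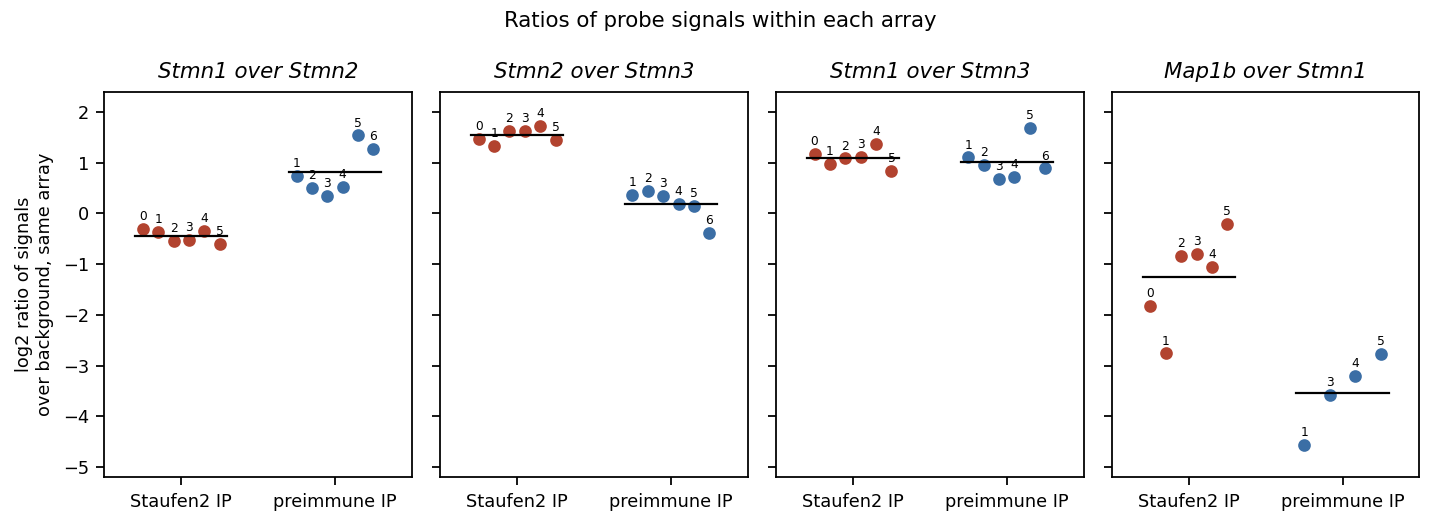
Log2 ratio of signals over background between 2 probes of the same array, for Staufen2 arrays (left, red) and preimmune arrays (right, blue), with replicate numbers and a line at the group mean. The groups separate for Stmn1 over Stmn2, for Stmn2 over Stmn3 and, narrowly, for Map1b over Stmn1 (10 arrays), and they overlap for Stmn1 over Stmn3.

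The raw signal of Map1b and Map2 varied more between Staufen2 arrays than that of the other 5 genes. The coefficient of variation of raw signal over the 6 Staufen2 arrays was 51.3% for Map1b and 53.7% for Map2, against a median of 28.5% over bright probes. It was 18.5% for Stmn1, 15.6% for Stmn2 and 20.8% for Stmn3, and 16.2% and 13.2% for Map1a and Stmn4, whose raw signal is mostly background. The highest Staufen2 array had 6.19 times the raw signal of the lowest for Map1b and 3.66 times for Map2. In signal over background these factors were 6.64 and 4.40, beside 4.03 for Map1a and 3.83 for Stmn4. Over background, then, the 2 near-background genes did not vary clearly less than Map2. The extreme arrays differed between the 2 genes, as replicate 5 was the highest for Map1b and the lowest for Map2.

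Across the 6 Staufen2 arrays the 3 bright stathmins varied together in normalized value. Pearson's r was 0.973 between Stmn2 and Stmn3, 0.891 between Stmn1 and Stmn3 and 0.850 between Stmn1 and Stmn2. On the log2 raw signal these were 0.899, 0.812 and 0.862. Those of Map1b with Stmn1 and Map2 depended on the scale, at -0.755 and -0.520 on normalized values and at 0.09 and -0.19 on the log2 raw signal. With Stmn4, Map1b had an r of 0.962 on normalized values and 0.929 on the log2 raw signal. With Map1a these were 0.538 and 0.767, and both Stmn4 and Map1a lay near background. These are descriptions over 6 arrays, which share a normalization in one case and differ in total signal in the other.

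The genes whose normalized profile over all 12 arrays was most like that of each gene were found by Pearson's r, and both the group difference and the strength of each array enter it. For Map1b they were Cblb (0.984), Cmip (0.980) and Mbd1 (0.979), and for Map2 they were Grin1 (0.940), Slc15a4 (0.935) and Sema4g (0.933). For Stmn1 they were Lamb1 (0.944), Exosc5 (0.942) and Mrpl22 (0.931), and for Stmn3 they were Pgls (0.969), Gap43 (0.960) and Mt3 (0.954). Stmn2 had the weakest matches of the bright genes, with Ldb2 (0.887), Irak1bp1 (0.875) and Tgfa (0.864). The near-background probes had Tas2r7l (0.934), Npepps (0.923) and Abhd17c (0.914) for Map1a, and Gnb2 (0.997), Cd160 (0.997) and Lactb2 (0.997) for Stmn4.

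A second probe row is relevant to Stmn1. It stands in the file as LOC303471, described there as a predicted gene similar to stathmin, and was picked out after its values were seen. It had a mean raw signal of 4848 units with Staufen2 and 502 units with preimmune antibody. Its quantile-normalized difference was -0.65 ± 0.20 (limma, adjusted p = 0.0177), and among bright probes it was -0.82 ± 0.23 (adjusted p = 0.00556). Whether this probe and that of Stmn1 bind the same transcript was not tested.

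Around these genes, 107 further genes of the microtubule system were listed, of which 65 were tested with 1 probe each. Of the 65, 23 were higher, 3 were lower and 39 passed in neither direction, beside 31.4% higher and 14.1% lower among 9026 genes. Their median difference was 0.17, against 0.08 for all genes. Of the 26 microtubule genes called higher with Map1b, Map2 and Map1a included, 6 were detected on no preimmune array. Among the 33 bright ones on the centred scale, 12 were higher and 8 lower, beside 29.3% and 29% of bright genes.

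The lists that hold the genes described above behaved as follows, these genes included. In the family of microtubule-associated proteins and doublecortins, 5 of 10 tested genes passed as higher in limma's fit, beside 31.4% of all genes, and 2 of the 5 were detected on no preimmune array. None passed as lower on the quantile scale, where 2 had an unadjusted p under 0.05 in that direction. Of 5 bright genes 2 were higher on the centred scale and 1 lower, beside 29.3% and 29% of bright genes. The lower one was Map1s (-0.90, adjusted p = 0.00296). Besides Map1b, Map2 and Map1a, the 5 that passed as higher were Dclk1, a doublecortin-like kinase that binds microtubules, and Map6, which stabilises them against cold. Dclk1 averaged 3962 units with Staufen2 and 147 with preimmune antibody and was 2.07 ± 0.45 higher (limma, adjusted p = 0.00248). Map6 passed (adjusted p = 0.00618) but was detected on no preimmune array, and its bound gave no fold above 1. The list of severing, depolymerising and catastrophe factors holds the stathmins. Of its 11 tested genes 2 passed as higher and 2 as lower, beside 31.4% and 14.1% of all genes, the lower ones being Stmn1 and Stmn3. On the centred scale 0 of 4 bright genes were higher and 3 were lower, beside 29.3% and 29% of bright genes. The third lower one was Spast, a severing enzyme (-0.81, adjusted p = 0.00798). Kif2a, a kinesin that depolymerises microtubule ends, passed as higher (adjusted p = 0.00999) but was also detected on no preimmune array, and its bound gave no fold above 1.

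Regulators of microtubule ends and of the lattice had 5 of 17 genes higher in limma's fit, close to the 31.4% of all genes. None was lower, with 1 lower at an unadjusted p under 0.05. Of the 5, Nav1 was detected on no preimmune array, and its bound gave no fold above 1. On the centred scale 2 of 9 bright genes were higher and 3 lower, beside 29.3% and 29% of bright genes. The lower ones were Macf1 (-0.96, adjusted p = 0.00281), Slain1 (-0.80, adjusted p = 0.00567) and Tacc2 (-0.58, adjusted p = 0.00956). Slain2, which promotes growth at plus ends, averaged 10983 units with Staufen2 and 204 with preimmune antibody and was 3.05 ± 0.55 higher (limma, adjusted p = 0.000632). The plus-end binding proteins Mapre3 (EB3) and Clip2 were 1.72 ± 0.31 and 1.23 ± 0.25 higher (adjusted p = 0.000741 and 0.00138). The next list held kinases that phosphorylate microtubule-associated proteins, together with Cdk5r2, an activator of Cdk5, and Stk11, which acts on other kinases. Of its 14 tested genes 7 passed as higher and 1 as lower, beside 31.4% and 14.1% of all genes. Of the 7, 2 (Mapk9 and Stk11) were detected on no preimmune array. The bound gave at least 1.59 fold for Mapk9 and no fold above 1 for Stk11. On the centred scale 4 of the 9 bright genes of this list were higher and 2 lower, beside 29.3% and 29% of bright genes. The list was led by Prkacb, of the catalytic part of protein kinase A (1.02 ± 0.10, adjusted p = 7.5e-06), Mapk10, the neuronal JNK3 (1.54 ± 0.27, adjusted p = 0.00054), and Camk2b, a calcium/calmodulin-dependent kinase subunit (2.04 ± 0.37, adjusted p = 0.000693).

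Of 7 genes for the LIS1 complex and collapsin response mediators, which link microtubules to dynein or to growth cone guidance, 4 were higher in limma's fit, beside 31.4% of all genes, and 0 were lower, adjusted or not. On the centred scale 3 of 6 bright genes were higher and 1 lower, beside 29.3% and 29% of bright genes. The lower one was Crmp1 (-0.79, adjusted p = 0.000446). Dpysl5 was 2.66 ± 0.42 higher (adjusted p = 0.000232), Dpysl3 2.20 ± 0.51 (adjusted p = 0.00368) and Ndel1, a partner of LIS1, 1.27 ± 0.21 (adjusted p = 0.000343). Genes of tubulin folding and modification had 3 of 13 higher and 2 lower, beside 31.4% and 14.1% of all genes. Among their 5 bright genes 2 were higher and 0 lower on the centred scale, beside 29.3% and 29% of bright genes. Vash2, which removes the terminal tyrosine of tubulin, was 2.58 ± 0.42 higher (adjusted p = 0.000325), Arl2, a GTPase that works with the folding cofactors, was 1.24 ± 0.36 higher (adjusted p = 0.0131), and Tbcb, a folding cofactor, was lower, at -1.51 ± 0.32 (adjusted p = 0.00202). On the bright-probe scale Mapre3 (0.71, adjusted p = 0.0899), Mapk10 (0.74, adjusted p = 0.234) and Arl2 (0.33, adjusted p = 0.363) were not called, and Clip2, Map6, Kif2a and Tbcb were not among the bright probes.

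**Figure D4:**
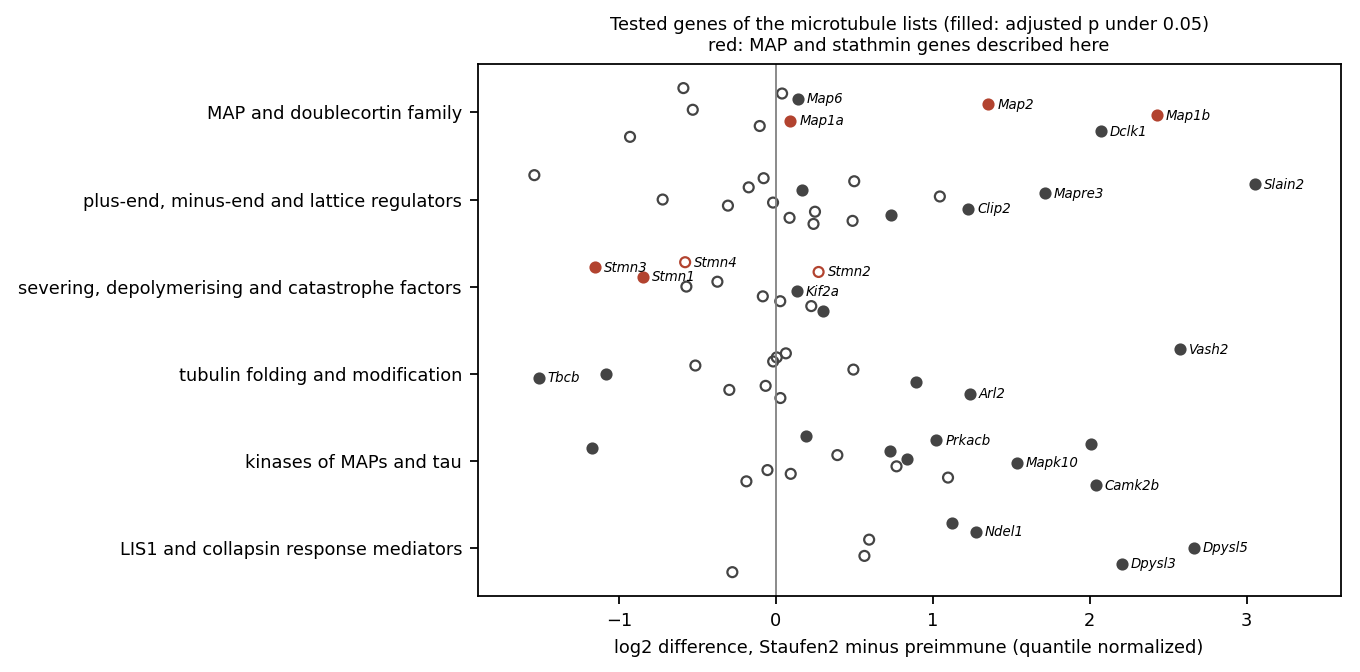
Log2 difference (Staufen2 minus preimmune, quantile normalized) of each tested gene in 6 microtubule lists, filled where the adjusted p was under 0.05, with the genes described here in red. Map1b and Map2 lie among the higher genes of their family, and Stmn1 and Stmn3 are the filled points below 0 in the list of depolymerising factors, where with no scaling they lie above 0.

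The tissue label was checked against markers. Of 11 neuronal marker genes on the array, 10 were detected on all Staufen2 arrays, and all 10 markers of radial glia and progenitors were. Their summed signal over background was 16497 to 27378 units with Staufen2 and 201 to 4644 units with preimmune antibody for neurons. For radial glia and progenitors it was 8733 to 17829 units with Staufen2 and 277 to 5863 units with preimmune antibody. Markers of other cells were detected on all Staufen2 arrays for 3 of 6 myelinating oligodendrocyte genes, 4 of 6 astrocyte genes, 2 of 5 microglial genes, 1 of 3 endothelial and pericyte genes, 3 of 6 Purkinje, granule and mature synapse genes and 4 of 5 red blood cell genes. Red blood cell markers summed to 9837 to 32275 units with Staufen2 and 295 to 16677 units with preimmune antibody. Mag of myelin, Aqp4 of astrocytes, Tyrobp of microglia, Rgs5 of pericytes and Pcp2 of Purkinje cells were detected on no array. Of 10 neuronal markers tested on the quantile scale, 2 were lower and 2 higher, beside 14.1% and 31.4% of all genes. The lower ones were Tubb3 (-0.99 ± 0.22, limma adjusted p = 0.00306) and Gap43 (-0.68 ± 0.16, adjusted p = 0.00481). The higher ones were Elavl3 (1.67 ± 0.29, adjusted p = 0.00046) and Nefl (1.02 ± 0.33, adjusted p = 0.0233). Their median difference was -0.71, and 5 were lower and 2 higher at an unadjusted p under 0.05. On the centred scale 4 of 8 bright neuronal markers were lower and 0 higher, beside 29% and 29.3% of bright genes, and neither Elavl3 nor Nefl was called. Of 10 radial glia and progenitor markers 4 were lower and 0 higher, beside 14.1% and 31.4% of all genes. At an unadjusted p under 0.05, 5 were lower and 0 higher. On the centred scale 4 of 5 bright radial glia and progenitor markers were lower and 0 higher, beside 29% and 29.3% of bright genes. The part of cell type in the differences of the 7 genes was not tested.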

How the data were processed

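The authors deposited a table with a raw signal intensity, a detection p-value and a bead standard error for each of 22226 probes on each of 12 arrays. Bead standard errors (12 columns) were left unused. The authors' deposited value table is on a log2 scale and matches the log2 raw signal intensity within 0.0001, so no scaling is visible in it, and its column medians run from 6.08 to 6.65. The submitters' processing notes name RMA, and neither its version nor the genome build is given in the sources used here. Signal columns carry sample names. Detection columns carry codes and were assigned to the neighbouring signal column. When probes were ranked by signal, 205 to 268 of 22225 adjacent pairs broke the order in an array's assigned column, and 6730 or more in the column of another array.

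Symbols were updated through a RefSeq table (GRCr8), which served for names alone, with 8052 probes matched by current symbol, 5355 by gene number and 3401 by an older symbol. Background was removed by normexp from the detection p-values (offset 16), followed by quantile normalization. The 9136 probes detected (p under 0.05) on 6 or more of 12 arrays were tested with limma 3.58.1 in R 4.3.3 (lmFit, eBayes with intensity trend, two-sided, Benjamini-Hochberg, threshold 0.05). Signal over background is the raw signal minus the signal at a detection p-value of 0.5, and it took a floor of 5 units before the log2 of the bright-probe values. Ratios within an array were tested with exact permutation tests, and their intervals invert the same test. In gene lists the probe with the highest mean stood for its gene. Precision is limited by the number of arrays and by signal over background, which is low on preimmune arrays.

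Genes named were the 7 by symbol, up to 3 per list with the smallest adjusted p, and for each of the 7 the 3 with the highest Pearson's r over the 12 arrays among officially named genes. The genes, lists, tests and alternatives were chosen with earlier results of these data known. The fit was also tested on simulated arrays with equal yield in both groups. That setting cannot show how the fit behaves where preimmune arrays carry much less signal, as they did here.

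The alternatives were median centring, no scaling, quantile normalization of the log2 raw signal, an offset of 50, no detection filter, detection on all 12 arrays, array weights, each array left out, preimmune replicates 2 and 6 left out, a replicate block, the run of codes as a block or each run alone, and the bright-probe values. Averaging the closest arrays (Staufen2 replicates 2 and 3, preimmune replicates 3 and 4) was added after seeing the data. Their median absolute log2 differences over 1683 probes were 0.07 and 0.09, and the next closest pair of each group stood at 0.17. The labels do not tell technical repeats from separate samples.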

Additional observations from a re-analysis of the deposited data

Results flagged for a closer look

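Of 28 groups of 6 arrays, raw and normalized for the 7 genes, 3 held an array that stood apart by Dixon's test, whose 95% critical value for 6 arrays is 0.625 (gap over range). Chance gives about 1 in 20 groups. Normalized Stmn2 was 10.92 on preimmune replicate 5 (gap over range 0.668), with the other preimmune arrays at 11.87 to 12.34. Normalized Stmn3 was 10.77 on the same array (0.718), under 11.79 to 12.20 on the other preimmune arrays. Normalized Stmn4 was 8.66 on preimmune replicate 6 (0.830), above 6.09 to 6.52 on the others.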

How the results depend on the processing

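Scaling changed most. Of 9136 tested probes, 2860 were higher and 1321 lower; median centring gave 6765 and 554, no scaling 9135 and 0, and the bright-probe values 867 and 854 of 2947. Of the 7 genes, 3 were higher and 2 lower, against 6 and 0 with median centring, 7 and 0 with no scaling and, of 5 bright genes, 1 higher. Under median centring Stmn1 was 1.65 and Stmn3 1.53, and with no scaling they were 3.61 and 3.48 and Stmn4 1.93, all turned to higher. Of the 65 other microtubule genes, 23 were higher and 3 lower; 51 were higher with median centring, 65 and 0 with no scaling, and 12 and 8 of 33 on bright-probe values, while quantile normalization of log2 raw signals gave 6 lower. Requiring detection on all 12 arrays left 264 probes higher and 970 lower of 1683, so that the balance turned, with 0 higher and 2 lower of 3 genes described here (Stmn1 and Stmn3) and 7 higher and 3 lower of 15 other microtubule genes. Array weights gave 2887 probes and 16 other microtubule genes lower, and leaving out preimmune replicates 2 and 6 gave 2362 and 12. The run of codes as a block and the first run alone gave 7 and 6 lower among the other microtubule genes. The second run alone, 2 arrays against 2, gave 0 higher and 0 lower in each set with limma, and 2310 higher and 731 lower probes at an unadjusted p under 0.05. Leaving out 1 array at a time gave 2612 to 2948 probes higher and 1065 to 1817 lower, 2 to 3 of the 7 genes higher and 2 to 3 lower, and 22 to 25 other microtubule genes higher and 2 to 6 lower.

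Ratios with Map2 or Stmn4 rest on preimmune signals near background. With the array's lowest signal as background, Map2 over Stmn1 differed by 0.54 (3.15 as computed otherwise), over Stmn2 by -0.64 (1.89), which is reversed, and over Stmn3 by 0.70 (3.24). On quantile-normalized values Stmn1 over Stmn4 was -0.27 (1.88) and Stmn3 over Stmn4 -0.58 (1.80), both reversed, and Stmn2 over Stmn4 was 0.85 (3.15). Without preimmune replicates 2 and 6, Stmn1 over Stmn4 was 1.11 and Stmn3 over Stmn4 1.07. In the first run alone, Map2 over Stmn2 was 1.19, Stmn1 over Stmn4 1.33, Stmn3 over Stmn4 1.11, Map1b over Stmn1 2.23 and Map1b over Stmn3 2.47. With the closest arrays averaged, Map2 over Stmn2 was 1.98, Stmn3 over Stmn4 2.10 and Map1b over Stmn3 2.17. Leaving out 1 array at a time gave 1.07 to 2.32 for Map2 over Stmn2, 1.39 to 2.28 for Stmn1 over Stmn4, 1.33 to 2.17 for Stmn3 over Stmn4, 0.69 to 1.55 for Map1b over Stmn2 and 2.00 to 2.79 for Map1b over Stmn3; without preimmune replicate 5 alone Map1b over Stmn2 passed (exact permutation p = 0.0357). The causes were not tested.

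Replicate numbers 1 to 5 occur in both groups. The deviations of same-numbered arrays from their group means correlated at 0.26, 0.05, 0.22, -0.12 and 0.30. In all, 3 of 5 Staufen2 and 1 of 5 preimmune arrays correlated best with their own number. The labels state no pairing, and the main fit used none. Whether a Staufen2 and a preimmune array of different numbers belong together was not tested. With a replicate block the fit called 2553 probes higher and 1587 lower, and Map1a was 0.09 (adjusted p = 0.0705). In ratios paired by number every p was at or above 0.0625, the smallest that 5 pairs allow: Map2 over Stmn1 2.81, over Stmn2 1.60, over Stmn3 2.85 and over Stmn4 4.08, Stmn1 over Stmn2 -1.21 and over Stmn4 1.27, Stmn2 over Stmn3 1.25 and over Stmn4 2.48, and Stmn3 over Stmn4 1.23. With the closest arrays averaged Map2 was 1.31 (limma, adjusted p = 0.0669).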

Other observations

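A probe described in the file as a predicted gene similar to doublecortin isoform a (LOC501537) had raw signals of 79.1 to 111 units on the Staufen2 arrays and 65.4 to 78.9 units on the preimmune arrays. It was detected on 4 Staufen2 arrays and on 0 preimmune arrays, and it did not pass the detection filter. It was picked out after its values were seen.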
